A study of Mus musculus with 6 samples.

Results

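Potassium channels were followed through the atria of old mice in 9 genes, taken by name from the 54838 genes of the count table. They are the voltage-gated channel genes Kcna5, Kcnd2, Kcnd3, Kcnq1 and Kcnh2, the Kcnd partner Kcnip2, the two-pore channel gene Kcnk3 and the small-conductance calcium-activated channel genes Kcnn2 and Kcnn3. All 9 have an Ensembl identifier in the table and counts in every library, and all 9 passed the filter on low counts. That filter kept 14708 genes, so no member was judged only through a group in which it was high. The samples are 6 atrial RNA libraries, 1 per mouse, from mice of both sexes with an average age of 20.9 ± 0.43 months (the labels do not say what kind of error this is), made to compare 3 mice lacking the epsilon isoform of protein kinase C (PKC-epsilon, gene Prkce; KO) with 3 wild-type (WT) mice. The wild-type line is given as C57BL/6J and the knockout line as JAX stock 004189, and the labels used here do not describe the disrupted allele or the cells in which it acts.

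The labels name 2 different genotypes for 4 of the 6 libraries. The library name, which heads the column of counts, gives one, and the title, mouse line and genotype field give the other. Every comparison was therefore made by library name and again by genotype field, and each library is called by its library name, numbered as the replicate in its title. By genotype field, the libraries labelled WT replicate 1, KO replicate 2 and KO replicate 3 are wild type, and those labelled KO replicate 1, WT replicate 2 and WT replicate 3 are knockout. Prkce, the targeted gene, was at 36.2, 11.7 and 30.2 CPM (counts scaled to library size) across replicates 1, 2 and 3 with the label WT, and at 9.20, 5.15 and 28.6 CPM across those with the label KO; values below keep this order. It goes against the library name in WT replicate 2 and KO replicate 3, and against the genotype field in KO replicate 2 and WT replicate 3, so directions between KO and WT below compare labels, and in either reading Prkce contradicts 2 of the 6.

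Potassium channels carry the outward current that ends the cardiac action potential and holds the resting potential between beats. In the atrium, Kv4 channels (Kcnd2, Kcnd3) with the calcium-binding subunit KChIP2 (Kcnip2) carry the transient outward current, Kv1.5 (Kcna5) the ultrarapid delayed rectifier, ERG1 (Kcnh2) the rapid and KvLQT1 (Kcnq1) the slow delayed rectifier. TASK-1 (Kcnk3) is a background channel of atrial muscle, and the SK2 and SK3 channels (Kcnn2, Kcnn3) open with cytosolic calcium.

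The pore-forming genes share the selectivity filter that gives these channels their preference for potassium, and its coding sequence is shown here because it is what the members have in common beyond the rule that named them. The lines below give 60 bases, 5′ to 3′, for 6 of these genes, from the longest complete coding sequence of each in the GENCODE M21 transcripts (GRCm38). Capitals mark the codons of the filter: threonine or serine, any residue, glycine, tyrosine or phenylalanine, glycine.
Kcna5: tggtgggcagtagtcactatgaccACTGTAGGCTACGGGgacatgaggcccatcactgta
Kcnd2: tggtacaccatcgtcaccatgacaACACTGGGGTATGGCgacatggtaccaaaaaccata
Kcnq1: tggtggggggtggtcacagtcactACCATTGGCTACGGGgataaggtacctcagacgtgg
Kcnh2: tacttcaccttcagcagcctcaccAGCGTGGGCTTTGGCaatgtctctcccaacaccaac
Kcnk3 filter 1: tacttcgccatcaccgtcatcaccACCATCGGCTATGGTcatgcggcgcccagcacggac
Kcnk3 filter 2: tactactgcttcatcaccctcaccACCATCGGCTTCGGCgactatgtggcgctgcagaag
Kcnn3: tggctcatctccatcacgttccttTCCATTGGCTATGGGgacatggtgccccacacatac
The pattern was found in frame 2 times in Kcnk3, whose product has a pair of pore domains in each subunit, 1 time in each of the other 7 pore-forming members and 0 times in Kcnip2, which forms no pore. It was found in 54 of 54 other pore-forming channel genes of the lists used here, and in 2.66% of all 21620 protein-coding genes with a complete coding sequence.

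How the reads were counted bears on these genes. Of 885 protein-coding genes whose whole body lies within other genes although at least 90% of their exon bases are clear of other exons, 98.5% have 0 counts in all libraries, against 19.6% of 19568 genes with at least 50% of the body clear. Of 48 genes with no exon base clear of other genes but over 20% of the body clear, only 18.8% are at 0. In the deposited table, reads in introns thus count towards a gene, and reads over a second gene are lost. Kcnq1 (chromosome 7, 143106362 to 143427042, GRCm38, plus strand) has 54.9% of its body and 90.2% of its exon bases clear, the shared stretch including the antisense RNA gene Kcnq1ot1. Kcnn2 has 76.8% of its exon bases clear and Kcnk3 has 89.2%; the other 6 members have 96.0% to 100%. Kcnd2 (chromosome 6, 21215503 to 21729805, plus strand) spans 514 kb for 5152 bases of exon, whereas Kcna5 (chromosome 6, 126532551 to 126535412, minus strand) is 1 exon of 2862 bases, so the share of intron reads may differ between them. Levels are compared between genes as CPM per kilobase of clear exon. Stretches of 50 bases shared with transcripts of other genes made up 0% of Kcnd2, Kcnip2, Kcnh2 and Kcnn3 and 1.21% to 6.82% of the other members, and isoforms cannot be told apart in these gene counts.

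Total counts ran from 11574206 to 24138824 per library. Markers of atrial muscle were high: Sln, Myl7 and Myl4 were at 2142 to 3046, 5247 to 6895 and 6871 to 9495 CPM, while Myl2, the light chain of ventricular muscle, was at 25.7 to 357 CPM. Myl2 also moved with the genotype field, at 32.6, 25.7 and 33.4 CPM in its 3 wild-type libraries and 251, 357 and 174 CPM in its 3 knockout libraries. In bulk tissue, fewer cells of a type and less RNA per cell cannot be told apart.

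Kcnk3 was the highest of the 9 genes per length, and the members fell into steps. It averaged 95.9 ± 8.1 CPM per kilobase (SD, n = 6 libraries), 3.08 to 5.40 times Kcnh2 in the same library. Kcnh2 at 23.3 ± 5.9, Kcnip2 at 21.0 ± 2.8 and Kcnq1 at 17.0 ± 1.7 CPM per kilobase formed a middle step. Per length, Kcnh2 exceeded Kcnip2 in 3 of 6 libraries, so these neighbours did not differ beyond their spread. In CPM it did so in 6 of 6, so their order rests on the length used. Kcnip2 exceeded Kcnq1 in 6 of 6 libraries by 1.11 to 1.37 times. Kcnq1 exceeded Kcna5 by at least 3.11 times in every library, and below this gap came Kcna5 at 4.49 ± 0.80, Kcnd2 at 3.24 ± 0.87, Kcnd3 at 2.30 ± 0.35 and Kcnn2 at 1.84 ± 0.59 CPM per kilobase. In this step Kcnd2 exceeded Kcnd3 in 6 of 6 libraries, while Kcna5 exceeded Kcnd2 in 5 and Kcnd3 exceeded Kcnn2 in 4 of 6. The order of Kcna5, Kcnd2 and Kcnd3 also rests on the length used. In CPM, Kcnd2 exceeded Kcnd3 in only 1 and Kcna5 exceeded Kcnd2 in only 2 of 6 libraries. Kcnn3, at 0.167 ± 0.045 CPM per kilobase, stood 7.24 to 19.0 times under Kcnn2.

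**Figure D1:**
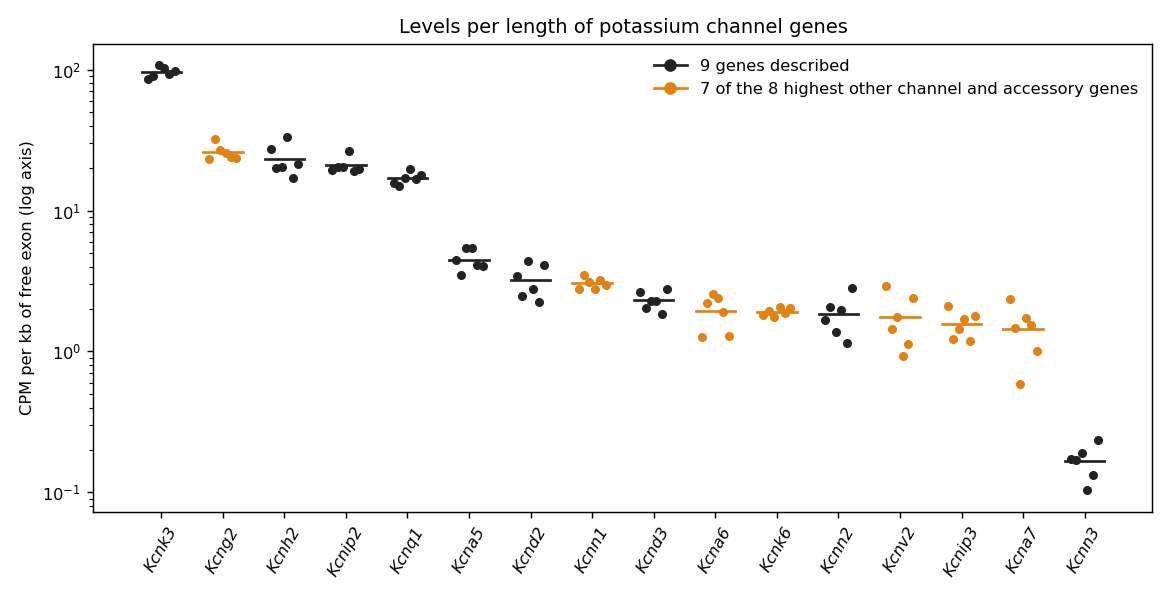
CPM per kilobase of exon clear of other genes (log axis) for the 9 genes (black) and 7 of the 8 highest of 75 other channel and accessory genes (orange). Points are the 6 libraries and bars their mean; Kcnk3 stands at 95.9 and Kcnn3 at 0.167, with the other 7 described genes between 1.84 and 23.3.

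The genes for the subunits of the transient outward current had unequal levels, with Kcnip2 the highest both in CPM and per length. Kcnd2 was at 17.8, 12.8 and 22.4 CPM in the libraries labelled WT and at 14.3, 11.6 and 21.2 CPM in those labelled KO. It was high in WT replicates 1 and 3 and KO replicate 3, the same libraries in which Prkce was high. Kcnd2 was not alone in this split. Kcnn3 (1.80 to 2.45 against 1.08 to 1.77 CPM) and the other channel gene Kcnv2 (9.03 to 14.9 against 4.71 to 7.32 CPM) shared it. The share of all tested genes with this split is not given here. Those labelled WT replicate 3 and KO replicate 3 also have the 2 largest total counts, 24138824 and 20152576, and the part of depth or of Prkce in this order was not tested. Kcnd3 was at 24.5, 18.6 and 20.8 CPM in the libraries labelled WT and at 20.9, 17.0 and 25.4 CPM in those labelled KO. Its values were lowest in KO replicate 2, as those of Kcnd2 were, and highest in KO replicate 3. The ratio of Kcnd2 to Kcnd3 per length was 1.22 to 1.30 in 4 libraries, 1.49 in KO replicate 3 and 1.92 in WT replicate 3.

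Kcnip2, needed for Kv4 channels to reach the surface and gate normally, was at 67.0, 71.3 and 71.1 CPM in the libraries labelled WT and at 92.4, 66.4 and 68.8 CPM in those labelled KO. The library labelled KO replicate 1 alone stood apart, above the counting intervals of the other 5 (88.0 to 97.1 CPM against at most 76.2 CPM). Per length, Kcnip2 stood at 2.88 to 5.27 times the sum of Kcnd2 and Kcnd3, lowest in KO replicate 3 and highest in KO replicate 1. The length is that of exons, whereas the bodies of Kcnip2, Kcnd2 and Kcnd3 span 24.2, 514 and 222 kb. The share of intron reads may therefore differ between them.

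Among the delayed rectifiers, Kcnh2 varied most and Kcnq1 least. Kcnh2 was at 131, 97.8 and 98.8 CPM in the libraries labelled WT and at 161, 82.8 and 104 CPM in those labelled KO. The pair whose names start with Old, WT replicate 1 and KO replicate 1, held its 2 highest values, so the library series and the level cannot be told apart. Kcnq1 was at 57.6, 55.5 and 62.6 CPM in the libraries labelled WT and at 73.1, 61.6 and 66.1 CPM in those labelled KO. The KO values lay at the upper end, and the groups overlapped only between KO replicate 2 and WT replicate 3. Kcna5 was at 12.7, 9.93 and 15.6 CPM in the libraries labelled WT and at 15.6, 11.7 and 11.6 CPM in those labelled KO, with both groups spread over the same range.

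Kcnk3, the atrial background channel, was the steadiest member. It was at 305, 319 and 381 CPM in the libraries labelled WT and at 363, 327 and 344 CPM in those labelled KO. Its coefficient of variation over the 6 libraries was 8.41%, and 8.42% of the tested genes had a smaller SD of log2 CPM. Counting error alone would give 1.32%.

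The SK channel genes were low and variable. Kcnn2 was at 9.54, 11.9 and 7.85 CPM in the libraries labelled WT and at 11.2, 6.60 and 16.1 CPM in those labelled KO. The libraries labelled KO held both its lowest and its highest value, a span of 2.44 times. Kcnn3 had 30, 21 and 45 counts in the libraries labelled WT and 19, 19 and 50 in those labelled KO, which are 1.80, 1.77 and 1.97 CPM and 1.08, 1.38 and 2.45 CPM. Its coefficient of variation was 27.3%, where counting error alone would give 18.4%. Kcnn2 and Kcnn3 were the members whose log2 CPM spanned over 1. The tested genes with the profiles nearest to Kcnn2 were Slc38a6, Bcl11a and Gm36535, with root mean square differences of 0.11, 0.12 and 0.13 in centred log2 CPM over 6 libraries. Those nearest to Kcnn3 were Nanos1, Gm26664 and Mogat2, at 0.09, 0.10 and 0.10. With 6 libraries and 14708 genes such neighbours are a description only.

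**Figure D2:**
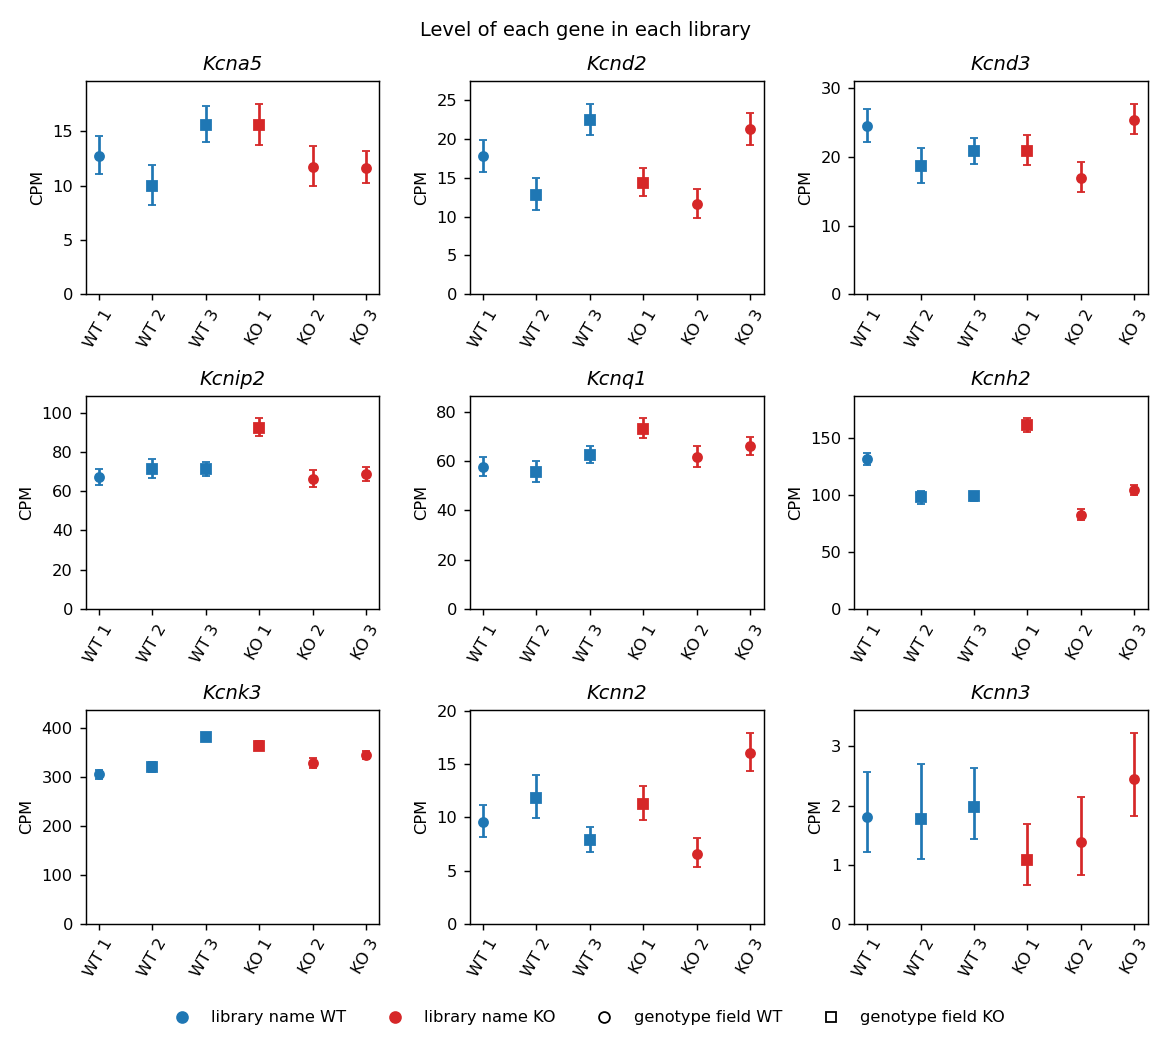
CPM of each of the 9 genes in each library, with 95% Poisson intervals for counting error; colour gives the library name and shape the genotype field, and each vertical axis starts at 0. The values of red and blue points overlap in every panel, and Kcnip2 and Kcnh2 are highest in KO replicate 1, at 92.4 and 161 CPM.

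All 9 members were on the low side in 1 library. In the library labelled KO replicate 2 all 9 lay below their own mean over the 6 libraries, with a median of -0.27 on the log2 scale, and 5 of the 9 had their lowest value there. In WT replicate 2, 7 of 9 lay below, with a median of -0.17; in the other 4 libraries 3 or 4 of 9 did, with medians of 0.00 to 0.15. These 2 libraries also had the lowest summed level of the cardiomyocyte markers (Ryr2, Ttn, Myh6, Tnnt2, Actn2, Myl7; Pln is listed at 0), 25326 and 26299 CPM against 28139 to 31699 CPM. They had the highest levels of the adipocyte list, 143 and 121 CPM against 19.8 to 65.2 CPM, and the 2 lowest total counts with KO replicate 2 at 14015308. When each member was taken relative to the cardiomyocyte sum, the coefficient of variation was smaller for 7 of 9 genes (Kcna5 10.3% against 17.8%, Kcnh2 19.2% against 25.3%) and larger for Kcnn2 and Kcnn3. The part of muscle content, fat or depth in the low values was not tested further. The share of all tested genes below their own mean in these libraries is not given here. Nor is the share with a smaller coefficient relative to the cardiomyocyte sum. The counts of members are therefore not shown to be particular to these channels.

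**Figure D3:**
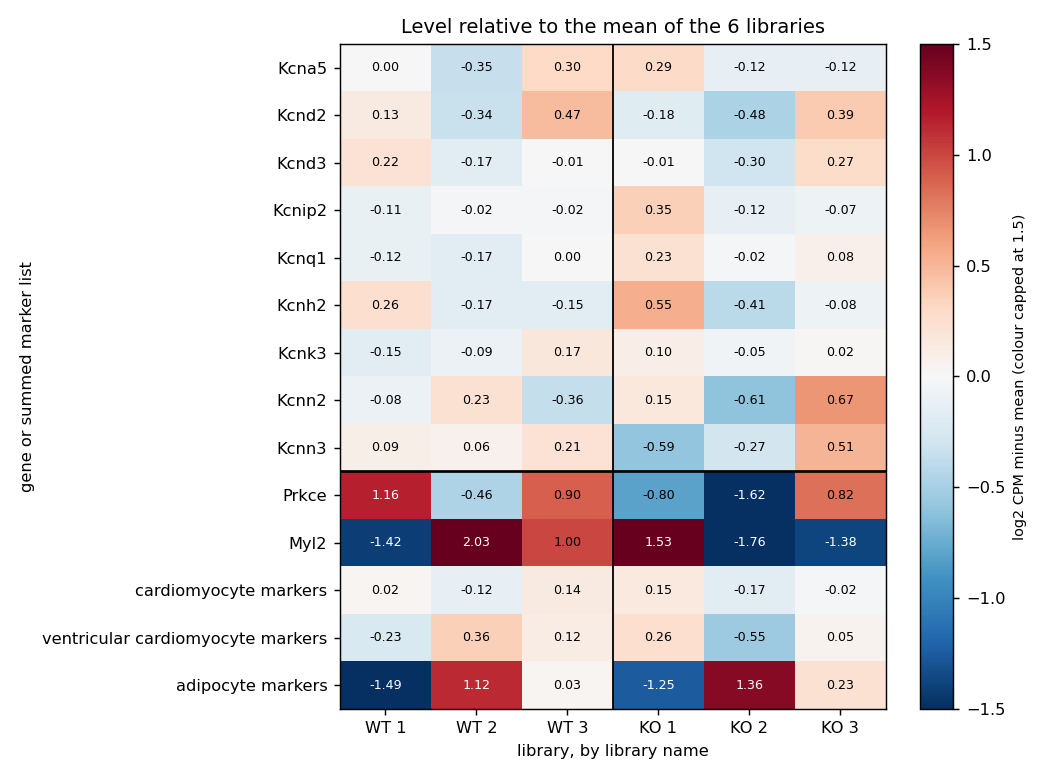
Log2 CPM minus the mean over the 6 libraries for the 9 genes, and below the line for Prkce, Myl2 and 3 summed marker lists; columns are libraries by library name, and colour is capped at 1.5. The column KO 2 is below 0 for all 9 genes, at a median of -0.27.

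By library name, the comparison asked whether channel genes differ between the labels KO and WT, and 0 of the 9 passed. The test was edgeR's quasi-likelihood F test, fitted on all 14708 genes, with p adjusted by Benjamini-Hochberg over all of them and called under 0.05; fold changes are log2 values of KO over WT. No gene passed this test (0%), and 219 (1.49%) had an unadjusted p under 0.05, of which 0 were members. DESeq2 and limma-voom called 0 genes as well. The targeted gene Prkce did not pass either, at -0.85 (SE 0.72) by library name and -0.45 (SE 0.79) by genotype field. A count of 0 members in these groupings therefore does not answer whether they differ with loss of PKC-epsilon. Of the members 6 had higher and 3 lower fitted values under the label KO, with a median of 0.04 against -0.02 for all tested genes, of which 45.5% were higher. The smallest p was that of Kcnq1, with a mean of 66.9 ± 5.8 CPM (SD, n = 3) under the label KO and 58.5 ± 3.6 CPM under the label WT. Its log2 fold change was 0.19 (SE 0.14, 95% interval -0.11 to 0.50, adjusted p = 0.99993 in edgeR). Kcnk3 differed by 0.04 (SE 0.15), with an interval that runs from 0.82 to 1.30 times. For Kcnd2 the value was -0.17 (SE 0.26) and for Kcnip2 0.12 (SE 0.16). Kcnn3 had the widest interval, -1.10 to 0.77 on the log2 scale, so a difference of either sign within it remains compatible with its counts. None of the 9 genes had groups that did not overlap, against 5.95% of all tested genes (3.33% higher, 2.62% lower). Leaving out 1 library turned the sign of every member but Kcnq1, whose value stayed between 0.13 and 0.25.

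By genotype field 0 of the 9 passed as well. Over all genes 2 passed in edgeR (0.0136%), which became 51 with the replicate number as a block; 0 members were among them, and 0 members were among the 837 genes (5.69%) with an unadjusted p under 0.05. The members had 5 higher and 4 lower, with a median of 0.05 against -0.01 for all tested genes. Kcnip2 was the member with the smallest p, with a mean of 78.3 ± 12.3 CPM (SD, n = 3) under the field knockout and 67.4 ± 1.2 CPM under the field wild type. Its log2 fold change was 0.22 (SE 0.14, 95% interval -0.10 to 0.53, adjusted p = 0.909 in edgeR). It was the 1 member of 9 whose groups did not overlap (71.1 to 92.4 against 66.4 to 68.8 CPM), which 12% of all tested genes also showed (7.48% with the field knockout higher); without KO replicate 1 the value was 0.08. Of the ventricular muscle markers, 1 of 5 tested passed in this grouping (Myl2, log2 fold change 3.09, SE 0.25, edgeR adjusted p = 0.0039), 3 of 5 were higher, and the list summed to 964 to 1139 against 608 to 924 CPM. Without Myl2 the sums overlapped, at 782, 790 and 811 CPM under the field knockout and 582, 725 and 890 CPM under the field wild type. Irx4, a ventricular transcription factor, had 10, 11 and 11 counts in the libraries with the field knockout and 0, 1 and 1 in the others. Myl3, also on the list, was at 165, 189 and 125 CPM in the former and 77.2, 76.1 and 54.4 CPM in the latter. Its groups did not overlap, which 12% of all tested genes also showed. Myh7, on the same list, did not follow Myl2, Irx4 and Myl3. It was at 119 to 150 CPM under the field knockout and 47.4 to 280 CPM under the field wild type. The part of ventricular muscle in the Kcnip2 values was not tested. Kcnk3 averaged 354 ± 32 under the field knockout and 325 ± 20 CPM under the field wild type (log2 fold change 0.12, SE 0.14). Kcna5 lay between 9.93 and 15.6 CPM under the former and between 11.6 and 12.7 CPM under the latter (log2 fold change 0.20, SE 0.21). Kcnd3 lay on the other side at -0.15 (SE 0.18). In the 4 libraries whose names start with a number, the readings hold the same pairs with the labels swapped, so each fold change there has the opposite sign in the other reading.

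**Figure D4:**
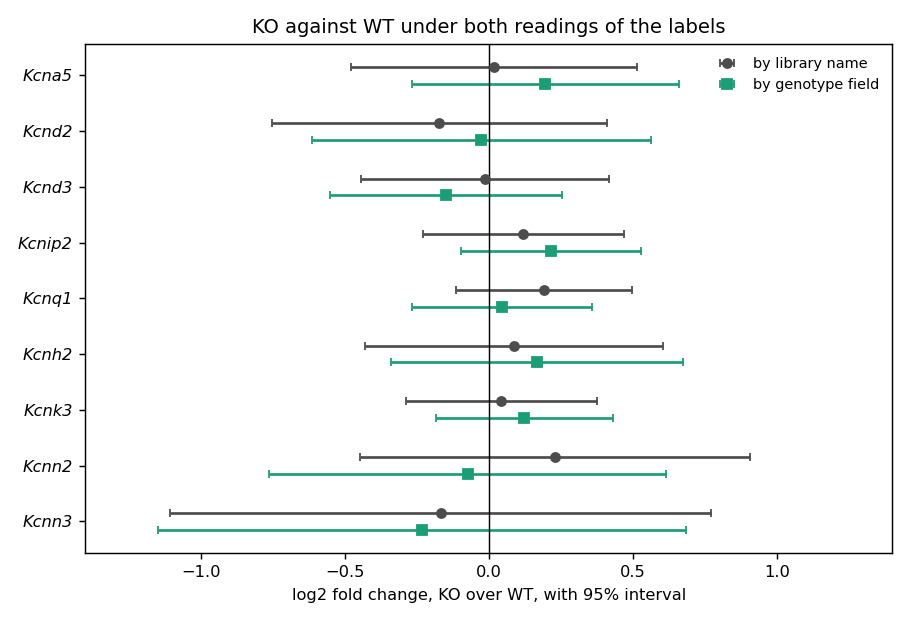
Log2 fold change of KO over WT for the 9 genes with 95% intervals from edgeR's test, by library name (grey circles) and by genotype field (green squares), 3 libraries a group. Every interval spans 0; the narrowest lie around Kcnq1, Kcnk3 and Kcnip2 and the widest around Kcnn3.

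Without the 2 libraries at odds with Prkce, a choice made after seeing the data and from Prkce itself, 0 of the 9 passed in either reading. The Y-linked genes Ddx3y, Eif2s3y, Kdm5d and Uty summed to 1.08 and 1.09 CPM in WT replicates 1 and 2 and 78.9 to 146 CPM in the other 4. With this level as a covariate, 0 of the 9 passed by genotype field. By library name both low libraries carry the label WT, so the level and the grouping are mixed. That fit sets the 3 libraries labelled KO against WT replicate 3 alone and cannot separate the 2.

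The wider list held 75 other channel and accessory genes, of which 33 were tested and 9 were at 0 in all libraries. Among those at 0, Kcna3, Kcne3, Kcne4 and Kcnmb1 have no part of the gene clear of other genes, so their absence from the counts says nothing of their level. Of the 33, 0 passed in either reading. By library name 16 were higher and 17 lower (median -0.03), and by genotype field 16 and 17 (median 0.00). Of the other two-pore channel genes 5 were tested, 3 higher and 2 lower in both readings. The accessory subunits had 6 of 9 higher by library name and 4 of 9 by genotype field.

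Among these genes Kcng2, which encodes the silent subunit Kv6.2, was as high per length as the middle step of the members, at 25.9 ± 3.4 CPM per kilobase (SD, n = 6). It was at 63.3, 87.9 and 72.6 CPM in the libraries labelled WT and 69.8, 64.7 and 64.4 CPM in those labelled KO. By genotype field the knockout mean was 76.8 ± 9.7 CPM and the wild-type mean 64.1 ± 0.7 CPM (log2 fold change 0.26, SE 0.13, edgeR adjusted p = 0.904). Its groups did not overlap, which 4 of the 33 and 12% of all tested genes showed in this grouping. Kcnn1, for SK1, stood at 3.05 ± 0.29 CPM per kilobase, above Kcnn2 and Kcnn3. Kcna6, Kcnk6, Kcnv2, Kcnip3 and Kcna7 averaged 1.44 to 1.94 CPM per kilobase, of which Kcna6 rests on 6.38% of its exon bases.

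The other genes given here for having the smallest p of the list were low. Kcnk4, a two-pore channel gene, had 24, 20 and 16 counts in the libraries with the field knockout and 6, 8 and 10 in the others (log2 fold change 1.36, SE 0.54, edgeR adjusted p = 0.868). It too is among the 12% of tested genes whose groups did not overlap. By library name, Kcnab1, an accessory subunit with 18.9% of its body and 81.2% of its exon bases clear, was at 0.52 (SE 0.41) and Kcnma1, the large-conductance channel, at 0.61 (SE 0.49). Their unadjusted p in edgeR's test, 0.23 and 0.24, were not small. None of these passed.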

How the data were processed

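The deposited table gives raw, unnormalised read counts per Ensembl gene in 6 libraries. The submitters' processing notes list HISAT2 2.1.0, featureCounts 1.5.0-p3, FastQC 0.11.5 and MultiQC 1.7, and GRCm38. The sources used here do not give the annotation release, feature type or strand setting. Per the labels' protocols, libraries were TruSeq v2, which does not mark strand. Symbols, positions and exon unions came from GENCODE M21. Total counts were 11574206 to 24138824, and intervals cover counting error only. CPM was computed after TMM normalisation (edgeR 4.0.16, R 4.3.3, filterByExpr); limma 3.58.1 (voom) and DESeq2 1.42.0 were alternatives. The SE was taken from F, as the size of the log2 fold change divided by its square root. All pairs of libraries differed by more than sampling noise, at 20.4 to 67.5 chi-square per degree of freedom. Same-numbered libraries deviated together (r = 0.157, 0.162 and 0.121 by library name, 0.269, 0.227 and 0.121 by genotype field, across genes). Differently numbered pairs lay between -0.168 and 0.00331 by library name and between -0.297 and 0.134 by genotype field, so there 1 such pair (WT replicate 2 with KO replicate 3) exceeded the lowest same-numbered one. The numbers were used as a block in an alternative. Members and lists were chosen with earlier results of these data known. Named were the members, Prkce, Myl2 and marker sums, the 3 other channel genes with the smallest p in each reading, the 8 highest per length, the 3 regulators with the smallest p, and the 3 nearest profiles of members spanning over 1 in log2 CPM; Irx4 and the other muscle markers given singly were chosen after their values were seen. Some genes that this rule names, and some sequences, are not reported here.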

Additional observations from a re-analysis of the deposited data

How the results depend on the processing

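In every fit run, 0 of the 9 members and 0 of the other channel genes passed, the replicate block included. Of 288 member values in the alternatives, 253 kept the direction reported and 35 turned. By library name the values that turned were, for Kcna5, -0.0071 in limma-voom, -0.27 with the Y-linked covariate, -0.14 in the numbered series alone and -0.0571 without the libraries at odds with Prkce; for Kcnd3, 0.0209 with the Y-linked covariate and 0.11 in the numbered series; for Kcnk3, -0.14 and -0.0549 likewise; and in the numbered series alone Kcnip2 at -0.0716, Kcnh2 at -0.0664 and Kcnn3 at 0.0491. With the Y-linked covariate, the values by library name set the libraries labelled KO against WT replicate 3 alone. By genotype field, Kcnd2 was at 0.10 and Kcnq1 at -0.12 in the numbered series. Leaving out 1 library gave, by library name, -0.13 to 0.19 for Kcna5, -0.45 to 0.0428 for Kcnd2, -0.17 to 0.12 for Kcnd3, -0.0404 to 0.21 for Kcnip2, -0.22 to 0.28 for Kcnh2, -0.0205 to 0.15 for Kcnk3, -0.12 to 0.50 for Kcnn2 and -0.59 to 0.0690 for Kcnn3. By genotype field it gave -0.32 to 0.18 for Kcnd2, -0.0651 to 0.13 for Kcnq1, -0.11 to 0.34 for Kcnh2, -0.32 to 0.35 for Kcnn2 and -0.42 to 0.0142 for Kcnn3.

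Over all genes, the count of 0 by library name was 1 with all genes of at least 1 count, 4 with the Y-linked covariate, 3 in the numbered series, 6 without the libraries at odds with Prkce and 0 to 4 leaving out 1 library. The count of 2 by genotype field was 27 in DESeq2, 1 in limma-voom, 25 with all genes of at least 1 count, 51 with the replicate block, 7 with the library series as a covariate and 0 to 2 leaving out 1 library. The cause was not tested. The block changed no other call. Depth limits Kcnn3 most, with 19 to 50 counts a library.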

Other observations

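Among anchors and regulators of these channels, 24 of 26 genes were tested and 0 passed in either reading, with 7 higher by library name and 13 by genotype field. Nkx2-5, a cardiac transcription factor, was at 30.6, 49.6 and 35.1 CPM in the libraries with the field knockout and at 21.9, 20.3 and 20.2 CPM in those with the field wild type (log2 fold change 0.88, SE 0.19, edgeR adjusted p = 0.551). Actn2, the Z-disc actinin that is also on the cardiomyocyte list, was at 1787 ± 182 against 1369 ± 98 CPM (0.38, SE 0.15). The groups of both did not overlap, which 12% of all tested genes also showed. Of the ventricular markers 3 of 5 tested were higher in this grouping and 1 passed, Myl2; the part of ventricular muscle in these values was not tested. By library name the smallest p were those of Etv1 at -0.42 (SE 0.20), Nkx2-5 at -0.58 (SE 0.28) and Klf15 at -0.29 (SE 0.19).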
